A study of Mus musculus with 155 samples.

Results

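The naive pluripotency transcription factors are described here as a list of 10 genes (Nanog, Esrrb, Klf2, Klf4, Klf5, Tbx3, Tfcp2l1, Zfp42, Prdm14 and Nr5a2) out of the 55471 genes of the count tables. The list was written down by name, no measured value was used to choose it, and all 10 were found in the tables. Expression was measured by RNA-seq in 42 libraries of KH2 mouse embryonic stem cells (ESCs) and their derivatives, out of 155 samples of the series. KH2 is an ESC line with a doxycycline (Dox)-inducible locus, and every group here carries an HA-tagged H3.3 in it and received Dox. WT-H3.3 is the unmutated histone variant, H3.3K27M carries methionine and H3.3K27L leucine in place of lysine 27, and the GSK343 group is the WT-H3.3 line given GSK343, an inhibitor of the PRC2 methyltransferase EZH2, together with Dox. ESCs were grown in serum and LIF with the 2i inhibitors and sampled in each of these 4 groups at 4, 8, 24 and 72 h of Dox with 2 replicates, which makes 32 libraries. RA-treated cells of the 3 H3.3 lines were kept without LIF and 2i in retinoic acid, and oligodendrocyte progenitor cells (OPCs; WT-H3.3 and H3.3K27M) were derived through embryoid bodies and then plated. Both had 1 library for each line at 24 h and 1 at 72 h of Dox, giving 6 and 4 libraries. According to the methods, experiments were repeated weeks apart and all clones carry a potential duplication of chromosome 8, where Klf2 and Zfp42 lie. How many clones stand behind a line was not given in the sources used here.

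In naive pluripotency, the state of the epiblast before implantation, LIF signals through its receptor, JAK kinases and STAT3, and inhibition of MEK and GSK3 keeps the cells from leaving this state. These inputs are relayed by transcription factors that bind one another's genes: STAT3 feeds Klf4 and Tfcp2l1, GSK3 inhibition relieves repression of Esrrb, and MEK inhibition favours Nanog, Klf2 and Prdm14. The factors are lost at different speeds when cells differentiate, and several of them have other duties in other tissues.

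The libraries held 68378 to 21161392 counts in ESCs, 2239137 to 22269533 in RA-treated cells and 7499258 to 12387113 in OPCs. Levels are given as CPM, the counts of a gene scaled to a library of 1000000 counts. The methods name a 3′ kit and a whole-transcript kit without saying which library had which, so levels were not compared between genes. A kit or library run that differed between stages cannot be told apart from the stage in comparisons between libraries. One library stands apart by its depth, replicate 2 of H3.3K27L ESCs at 72 h with the total of 68378, where the next lowest ESC library held 1247934. The H3.3K27L ESC libraries also differ by replicate number over whole chromosomes. Relative to the WT-H3.3 ESCs and to the median of 8752 genes, the median gene of chromosome 14 was at 1.47-fold in the 4 libraries numbered 1 and that of chromosome 8 at 0.708-fold in 3 libraries numbered 2, while the other 18 chromosomes measured stayed between −0.13 and 0.06 (log2) in the former and between −0.10 and 0.12 in the latter. Klf5 lies on chromosome 14, so the members' values in H3.3K27L ESCs are given below for each number as well.

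The genes occupy 8 chromosomes. By the annotation of NCBIM37 (mm9), the build to which the authors aligned, Nanog, a homeobox factor, spans chr6:122657507-122664651 on the plus strand, and Esrrb, an orphan nuclear receptor that can stand in for Nanog in self-renewal, spans chr12:87702067-87862578 on the plus strand. The 3 Krüppel-like zinc finger factors are Klf2 at chr8:74842932-74845555 (plus), Klf4 at chr4:55540013-55545347 (minus) and Klf5 at chr14:99697910-99712624 (plus). Tbx3, a T-box factor, lies at chr5:120120678-120134733 (plus). Chromosome 1 holds 3 members, namely Tfcp2l1, a grainyhead-family factor listed in the annotation as Tcfcp2l1, at chr1:120524522-120581744 (plus), Prdm14, a PR-domain factor that restrains FGF signalling and DNA methylation, at chr1:13103538-13117244 (minus), and Nr5a2, a nuclear receptor that binds the Pou5f1 gene, at chr1:138740161-138857004 (minus). Zfp42, a zinc finger gene better known as Rex1 and used as a reporter of the naive state, lies at chr8:44380422-44392363 on the minus strand.

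Promoter sequences (250 bases before to 50 after a RefSeq start, GRCm38.p6, a later build than that of the positions above) were held for 7 of the 10 genes, as 10 windows of 300 bases. They were searched on both strands for 4 short words bound by pluripotency factors. The KLF word (GGGCGTG or GGGTGTG) occurred in 6 of the 10 windows, against 15.5% of 32851 promoters. The octamer word TTTGCAT of POU factors occurred in 3 of 10 against 4.63%, the SOX word (ACAATGG or ACAAAGG) in 1 of 10 against 9.28%, and the nuclear receptor word AAGGTCA in 0 of 10 against 4.72%. The 2 Nanog windows overlap and hold the same matches, and no match overlapped another. A match is a run of letters and no measured binding site. The windows of Nanog, Zfp42 and Tfcp2l1 are shown because these genes are among the 4 members furthest below their ESC level in H3.3K27M OPCs. That of Klf4, which like that of Klf2 held none of the words, is shown because Klf4 was among the 3 members that stayed highest in RA-treated cells. Each is written 5′ to 3′ on the strand of the gene, with matches in capitals. In Nanog (chr6:122707239-122707538, plus) the octamer word begins 75 bases and the KLF word 10 bases before the start. In Zfp42 (chr8:43306960-43307259, minus) the octamer word begins 185 bases before the start and the KLF word, on the opposite strand, reaches 74 bases upstream. In Tfcp2l1 (chr1:118627695-118627994, plus) 2 KLF words on the opposite strand reach 60 and 46 bases upstream. The Klf4 window is chr4:55532426-55532725 on the minus strand.
Nanog: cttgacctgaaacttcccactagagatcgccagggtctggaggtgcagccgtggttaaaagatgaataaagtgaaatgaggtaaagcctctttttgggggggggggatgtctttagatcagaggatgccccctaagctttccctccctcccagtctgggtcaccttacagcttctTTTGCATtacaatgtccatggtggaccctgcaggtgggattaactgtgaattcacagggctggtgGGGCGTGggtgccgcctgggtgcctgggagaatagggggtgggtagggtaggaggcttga
Zfp42: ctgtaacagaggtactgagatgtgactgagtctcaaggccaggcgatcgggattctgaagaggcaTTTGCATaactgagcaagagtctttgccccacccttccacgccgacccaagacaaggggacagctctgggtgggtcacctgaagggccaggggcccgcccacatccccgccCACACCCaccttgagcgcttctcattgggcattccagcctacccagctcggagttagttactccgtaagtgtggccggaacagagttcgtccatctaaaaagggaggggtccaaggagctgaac
Tfcp2l1: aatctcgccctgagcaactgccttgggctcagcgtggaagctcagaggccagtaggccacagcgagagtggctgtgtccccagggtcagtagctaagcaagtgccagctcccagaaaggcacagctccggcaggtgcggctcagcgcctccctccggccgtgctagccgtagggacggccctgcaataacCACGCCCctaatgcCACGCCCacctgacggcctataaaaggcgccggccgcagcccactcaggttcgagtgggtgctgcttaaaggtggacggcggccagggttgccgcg
Klf4: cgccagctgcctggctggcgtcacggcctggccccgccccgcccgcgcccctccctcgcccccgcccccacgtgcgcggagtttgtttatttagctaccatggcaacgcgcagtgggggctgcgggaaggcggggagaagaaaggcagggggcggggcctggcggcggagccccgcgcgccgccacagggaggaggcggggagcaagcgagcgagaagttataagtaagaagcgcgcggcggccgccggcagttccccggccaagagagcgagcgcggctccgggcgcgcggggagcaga

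All 10 factors were expressed in undifferentiated ESCs of every group. Nanog was at 658 CPM in the lowest, 1224 in the median and 1638 in the highest of the 32 ESC libraries, and Tfcp2l1 at 370, 933 and 1780 CPM. Esrrb ran from 395 to 887 CPM (median 663), Zfp42 from 235 to 576 (median 374) and Klf4 from 204 to 570 (median 351). The lowest Nanog and Esrrb values both belong to the library of 68378 counts, and without it the lowest were 915 and 470 CPM. Klf2 was at 132, 341 and 410 CPM (lowest, median and highest), Klf5 at 220, 264 and 481, Tbx3 at 102, 221 and 361, and Nr5a2 at 79.3, 125 and 155. Prdm14 had a median of 38.8 CPM and a highest value of 53.6. Its 0 counts in the smallest library lie in a library where 3 counts already equal 43.9 CPM, so that level could not be told from the median, and the lowest of the other 31 libraries had 22.1 CPM. In such bulk samples fewer cells of a type and less RNA per cell cannot be told apart.

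**Figure D1:**
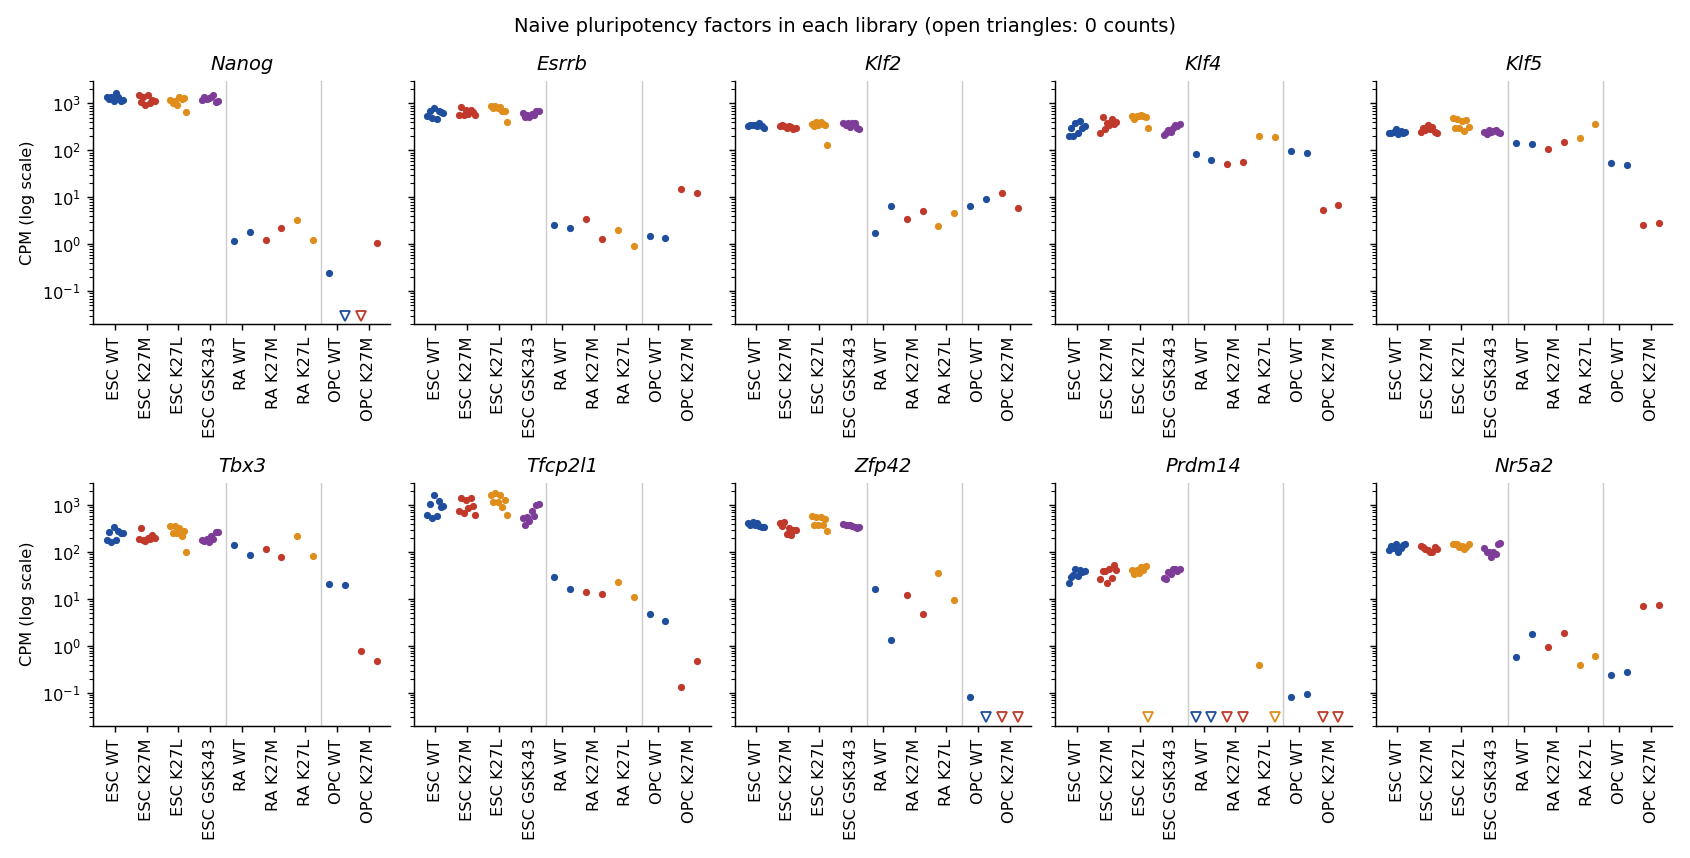
CPM (log axis) of each of the 10 genes in every library, by stage and line; open triangles are libraries with 0 counts. The ESC libraries form the high band in each panel, and Klf4, Klf5 and Tbx3 are the genes whose RA-treated libraries remain nearest to it.

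The first question is whether the mutant histones, or GSK343, altered the naive factors while the cells were kept undifferentiated. None of the 10 was called in H3.3K27M against WT-H3.3 ESCs over the 4 Dox times, where a called gene has an adjusted p under 0.05 and differs by over 2-fold either way (edgeR's quasi-likelihood test, Benjamini-Hochberg adjustment over all genes tested). The background was 0.0143%, or 2 of 14012 genes called, with 1619 genes at an unadjusted p under 0.05, so a count of 0 among 10 is what the background gives. Differences ran from −0.23 (Zfp42) to 0.35 (Klf4) on the log2 scale. Nanog was at −0.09, Nr5a2 at −0.12, Klf2 at −0.10 and Tbx3 at −0.19, whereas Esrrb (0.08), Tfcp2l1 (0.08), Prdm14 (0.07) and Klf5 (0.18) lay above 0, none of them past the threshold. Without pairing by replicate number, Klf4 was the 1 member with an unadjusted p under 0.05 (log2 difference 0.35, SE 0.16, adjusted p = 0.399). Its WT-H3.3 libraries held 204 to 418 CPM and its H3.3K27M libraries 231 to 513 CPM, so the lines overlapped. For Zfp42, 5 of the 8 H3.3K27M libraries (235 to 323 CPM) lay below all WT-H3.3 libraries (336 to 429 CPM), with a log2 difference of −0.23 that did not pass (SE 0.13, edgeR adjusted p = 0.542). Replicate numbers pair these 2 lines, as given under the processing. With the number as a block, Klf4 (0.35, edgeR adjusted p = 0.279) and Zfp42 (−0.24, adjusted p = 0.368) both had an unadjusted p under 0.05. In that fit 0 members were called, against 0.164% of all genes (23 genes). At 72 h alone the members' differences lay between −0.23 and 0.33, with 0 members called against a background of 0% (248 genes at an unadjusted p under 0.05).

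H3.3K27L ESCs held more Klf4 and more Klf5 transcript than WT-H3.3 ESCs, by less than the 2-fold needed for a call. Klf4 was at 472 to 570 CPM in 7 H3.3K27L libraries, above every WT-H3.3 library (204 to 418 CPM), and at 307 CPM in the smallest library. Over the 4 Dox times its difference was 0.78 (log2, SE 0.16, 1.72-fold, edgeR adjusted p = 0.00349), and 0.84 (adjusted p = 0.00213) without the smallest library. Klf5, which acts with Klf2 and Klf4 on shared targets and is also known from gut epithelium, was higher by 0.64 (SE 0.12, 1.56-fold, adjusted p = 0.00147), or 0.68 (adjusted p = 0.000924) without that library. These p-values count the 4 Dox times of a repeat as separate, though each group had 2 repeats, and may be too small. On the adjusted p alone 8.14% of all genes passed, or 1141 of 14012, and 2 of the 10 members. With the 2-fold requirement 0 of 10 members were called against a background of 3.43% (481 genes), and the members' median was 0.28 where that of all genes was 0.00. Esrrb (0.28, adjusted p = 0.184) and Zfp42 (0.30, adjusted p = 0.182) had an unadjusted p under 0.05 only. Nanog was at −0.21, Klf2 at 0.05, Nr5a2 at 0.09, Tbx3 at 0.23, Prdm14 at 0.29 and Tfcp2l1 at 0.45, none past the threshold. At 72 h alone 0 members were called against 0.0357%, and Klf5 had the largest difference (0.74, adjusted p = 0.644).

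The H3.3K27L libraries of number 1 and number 2 did not hold the same values. Klf5 was at 426 to 481 CPM in the 4 libraries numbered 1 and at 264 to 322 CPM in the 4 numbered 2, without overlap. Each number was therefore fitted alone over 4, 8 and 24 h, which sets the smallest library aside and leaves 3 H3.3K27L libraries a fit. Each of these was the only H3.3K27L library of its Dox time, so SE and p-values rest on the spread of the other groups. The 3 share a replicate number and were counted as separate. Klf5 was then 0.90 above WT-H3.3 in number 1 (log2, SE 0.10, edgeR adjusted p = 4.34e-05), beside the 1.47-fold of the median gene of its chromosome, and 0.23 in number 2 (SE 0.10, adjusted p = 0.19). The part of the chromosome in the Klf5 value was not tested. Klf4 lies on another chromosome, whose median gene stayed within the range given above, and was 0.93 higher (adjusted p = 0.0125) in number 1 and 0.84 (adjusted p = 0.0223) in number 2. With the 72 h libraries kept in, the value of number 2 was 0.60 (adjusted p = 0.203). Zfp42 was at 513 to 576 CPM in number 1 and at 278 to 378 CPM in number 2. Its difference from WT-H3.3 was 0.54 (adjusted p = 0.0204) with number 1 and −0.04 (adjusted p = 0.922) with number 2, beside a chromosome 8 median of −0.03 in the first and −0.50 in the second. Klf2, the other member on chromosome 8, was at 0.19 (adjusted p = 0.151) and 0.03 (adjusted p = 0.897). Esrrb was at 0.50 (adjusted p = 0.044) and 0.32 (adjusted p = 0.253), and Tbx3 at 0.59 (adjusted p = 0.0483) and 0.06 (adjusted p = 0.908). Tfcp2l1 (0.87 and 0.18), Prdm14 (0.41 and 0.15), Nr5a2 (0.24 and 0.09) and Nanog (−0.13 and −0.35) passed in neither number. No difference reached 2-fold, and the difference between the numbers was itself not tested.

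**Figure D2:**
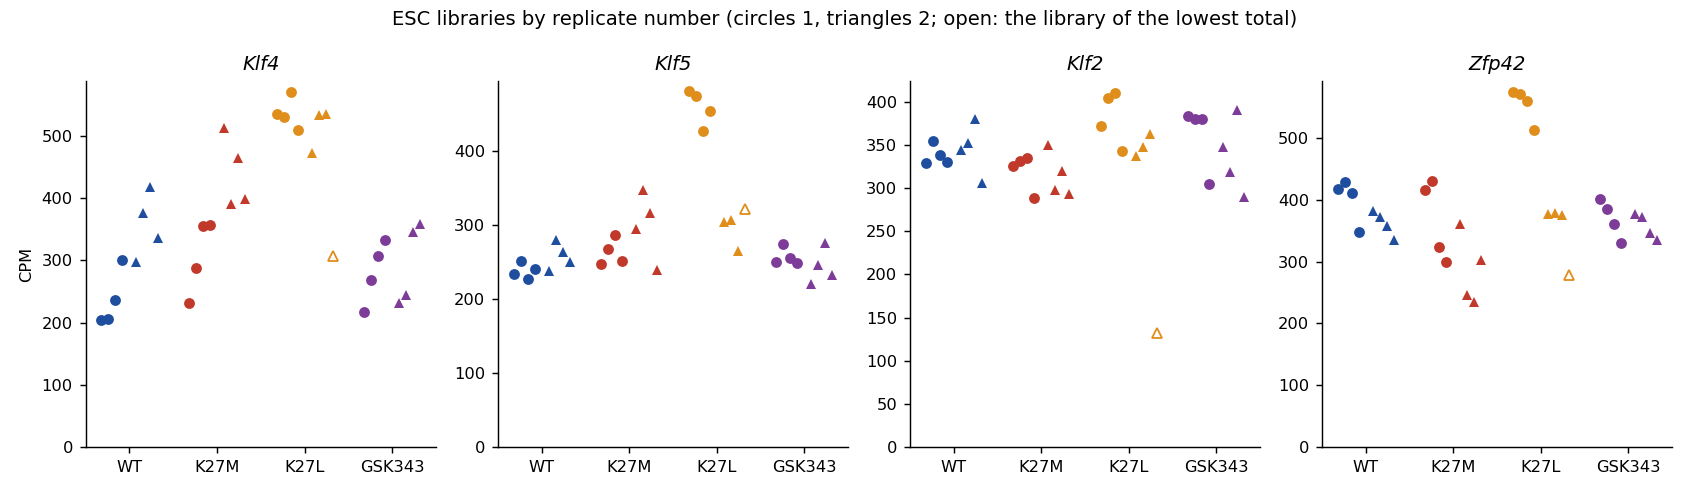
CPM of Klf4, Klf5, Klf2 and Zfp42 in ESC libraries by line and replicate number, with the library of the lowest total drawn open. The H3.3K27L libraries numbered 1 stand above all others for Klf5 (426 to 481 CPM) and Zfp42 (513 to 576 CPM), whereas both numbers are high for Klf4.

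Replicate numbers also set the naive factors apart in the other lines. In WT-H3.3 ESCs number 2 was above number 1 at 4 of 4 Dox times for Klf4 (ratio 1.11 to 1.84), Tfcp2l1 (1.04 to 3.0), Tbx3 (1.01 to 2.09), Nr5a2 (1.06 to 1.23), Klf5 (1.02 to 1.17) and Prdm14 (1.04 to 1.38), and Zfp42 was below it at 4 of 4 (0.868 to 0.966). In H3.3K27M ESCs the ratio was above 1 at 4 of 4 times for Klf4 (1.12 to 2.22), and Nanog was lower in number 2 at 4 of 4 (0.678 to 0.948). In H3.3K27L ESCs, with 3 times left after setting aside the smallest library, number 2 was below number 1 at 3 of 3 for every member but Klf4 (0.883 to 1.01). With GSK343 Nanog was higher in number 2 at 4 of 4 times (1.02 to 1.16), and Esrrb (0.822 to 0.996) and Tbx3 (0.863 to 0.992) were lower at 4 of 4. What differed between the repeats was not tested.

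GSK343 treatment left no member called over the 4 Dox times, with a background of 0% (678 genes at an unadjusted p under 0.05). The 2 members with an unadjusted p under 0.05 were Tfcp2l1 (log2 difference −0.61, SE 0.24, edgeR adjusted p = 0.973) and Nr5a2 (−0.25, SE 0.08, adjusted p = 0.973). For Nr5a2 the GSK343 libraries ran from 79.3 to 155 CPM and the WT-H3.3 libraries from 101 to 152 CPM, so the groups overlapped. The others were Tbx3 (−0.27), Esrrb (−0.11), Zfp42 (−0.11), Klf4 (−0.10), Nanog (−0.07), Klf5 (−0.03), Klf2 (−0.02) and Prdm14 (0.05). At 72 h alone 0 members were called against 0% (47 genes at an unadjusted p under 0.05).

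Between 4 and 72 h of Dox, across all 4 groups, Prdm14 was higher at 72 h by 0.46 (log2, SE 0.16, 1.37-fold, edgeR adjusted p = 0.0373), short of 2-fold, where 25.4% of all genes passed on the adjusted p alone. It had 22.1 to 41.0 CPM in the 8 libraries at 4 h and 37.7 to 53.6 CPM in 7 libraries at 72 h, and without the smallest library the difference was 0.50 (adjusted p = 0.0132). Klf2 had a difference of −0.28 (adjusted p = 0.0522), which passed without that library (−0.20, adjusted p = 0.0432) and with the replicate block (−0.28, adjusted p = 0.0429). Zfp42 (−0.29), Nanog (−0.19), Esrrb (−0.14), Klf5 (−0.04), Tbx3 (0.02), Tfcp2l1 (0.05), Nr5a2 (0.07) and Klf4 (0.16) did not pass in the comparison of all 32 libraries. With 0 of 10 members called, the background was 4.04%. Days in culture and hours of Dox cannot be told apart here, since no library lacked Dox.

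**Figure D3:**
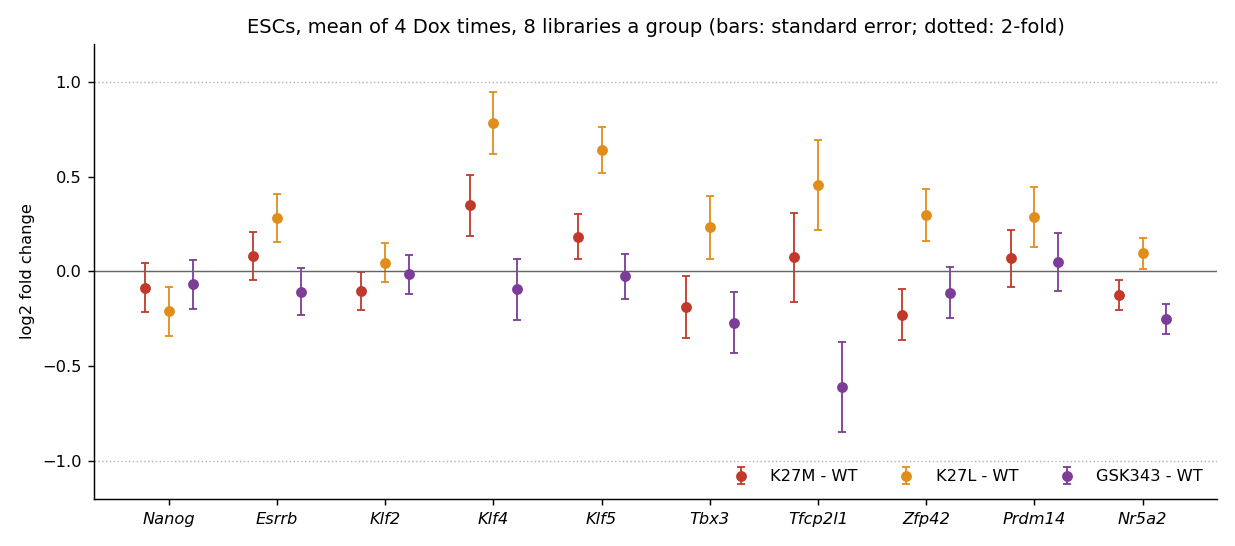
Log2 differences from WT-H3.3 ESCs, averaged over the 4 Dox times, for H3.3K27M, H3.3K27L and GSK343, with bars of 1 SE from edgeR. The points of Klf4 (0.78) and Klf5 (0.64) in H3.3K27L are those past the adjusted threshold, and every point lies within 1 log2 unit of 0.

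Most of the naive factors were far lower in RA-treated cells than in ESCs, whereas Klf4, Klf5 and Tbx3 were the members furthest from the detection limit. In this and the other comparisons of stages, the stage cannot be told apart from library run or kit. At 24 h of Dox, 9 of 10 members were called lower than in ESCs of the same lines and Dox time, against a background of 19.1% called lower (42.5% in either direction). The median of the members was −6.50 (log2) and that of all genes 0.01. At 72 h again 9 of 10 were called lower, against 31.2% (57.7% in either direction), with medians of −6.28 and −0.17. The 9 were not the same at both times, since Tbx3 missed 2-fold at 24 h and Klf5 at 72 h.

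Nanog, Esrrb, Nr5a2 and Prdm14 kept the lowest shares of their ESC levels at both times, and Prdm14 lay at the detection limit. Nanog was at 1.19 CPM in WT-H3.3, 1.21 in H3.3K27M and 3.35 in H3.3K27L at 24 h, and at 1.79, 2.25 and 1.22 CPM at 72 h, from 4 to 27 counts a library. This was 0.141% and 0.159% of the ESC level (log2 difference −9.72, SE 0.40, and −9.50, SE 0.43; edgeR adjusted p = 1.9e-16 and 1.21e-15). Esrrb, at 2.57, 3.46 and 2.01 CPM in the same order at 24 h and 2.23, 1.29 and 0.918 CPM at 72 h, kept 0.402% and 0.247%. Nr5a2 ranged from 0.402 to 1.93 CPM over the 6 libraries, that is 0.572% and 1.08% of ESCs. Prdm14 had 3 counts in the H3.3K27L library at 24 h and 0 in the other 5. Pooled over the 3 libraries at 24 h this was 0.222% of the ESC level (exact 95% Poisson interval 0.0459% to 0.650%, which like the limits below covers counting error only), and at 72 h, with a limit of 3 counts over the group, Prdm14 was at least 107-fold lower than in ESCs. Its call at 24 h was lost when any 1 of the 3 RA libraries of that time was left out, and its call at 72 h without the H3.3K27L library. In these fits its log2 difference was −11.31 to −8.24 at 24 h and −9.99 at 72 h. The SE could not be estimated in them (58302 or infinite), so the lost calls do not show a smaller difference.

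Klf2, Tfcp2l1 and Zfp42 were also at low levels. Klf2 was at 1.78, 3.5 and 2.41 CPM (WT-H3.3, H3.3K27M, H3.3K27L) at 24 h and at 6.70, 5.15 and 4.59 CPM at 72 h, so every 72 h library was above every 24 h library. This was 0.717% and 1.94% of ESCs, the first of these near the 0.572% of Nr5a2 at 24 h. Tfcp2l1 held 30.1, 14.2 and 22.6 CPM at 24 h and 16.1, 12.6 and 11 CPM at 72 h, or 2.0% and 1.48% of ESCs. Zfp42 held 16.2, 11.9 and 35.2 CPM at 24 h and 1.34, 4.83 and 9.49 CPM at 72 h, and the 2 times did not overlap. The 24 and 72 h of the RA-treated cells are hours of Dox, and the methods pool these times as similar. Whether the libraries of both times were prepared together was not given in the sources used here. Dox time, hours in retinoic acid and library run therefore cannot be told apart. Tested between these Dox times, Zfp42 was lower at 72 h by 1.95 on the log2 scale (SE 0.31, edgeR adjusted p = 1.06e-05). Klf2 was higher at 72 h by 1.00 (SE 0.37, 2.0-fold, adjusted p = 0.023). These were the 1 member called lower and the 1 called higher, where 25.9% and 14.6% of all genes were called (40.5% in either direction), so the members' shares were no higher than the background.

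Klf4, Klf5 and Tbx3 kept the highest shares of their ESC levels among the members, and Klf4 still fell at both times. Klf4 was at 85.5, 50.2 and 207 CPM at 24 h and at 63.4, 57.3 and 197 CPM at 72 h, with the H3.3K27L library the highest at both times. Its mean was 26.6% and 28.8% of the ESC mean (log2 difference −2.26, SE 0.20, and −2.19, SE 0.20; edgeR adjusted p = 3.02e-10 and 6.05e-10). In WT-H3.3 and H3.3K27M alone the mean was 18.4% and 17.4% of that of the same lines in ESCs. Klf5 was at 143, 107 and 183 CPM and then at 136, 151 and 363 CPM, the last of these inside the ESC range of 220 to 481 CPM. It fell by 1.18 (SE 0.18, adjusted p = 4.05e-06) at 24 h, or by 0.92 (adjusted p = 0.00145, under 2-fold) without the H3.3K27L library, and its value at 72 h was −0.66 (SE 0.18, adjusted p = 0.00244), below the 2-fold required. Tbx3, a factor also used in limb and endoderm development, was at 142, 117 and 216 CPM at 24 h and at 85.7, 77.0 and 81.7 CPM at 72 h. Its difference from ESCs was −0.71 (SE 0.19, adjusted p = 0.00177) at 24 h, not 2-fold, and −1.68 (SE 0.20, adjusted p = 7.08e-08) at 72 h, and between the 2 Dox times of RA-treated cells it was −0.91 (adjusted p = 0.000959), also under 2-fold. Without the H3.3K27L line Klf5 kept 45.7% and 58.5%, and Tbx3 61.5% and 34.1%.

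**Figure D4:**
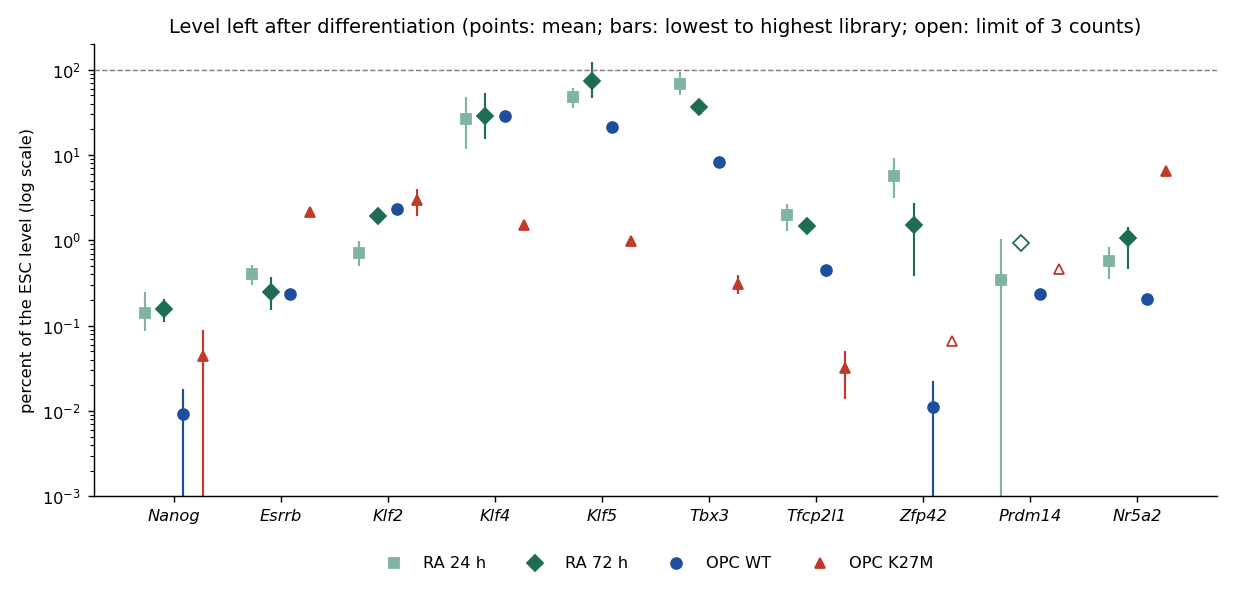
Percent of the ESC level left (log axis) for each gene in RA-treated cells at 24 and 72 h and in WT-H3.3 and H3.3K27M OPCs; points are means, bars run from the lowest to the highest library, a bar reaching the axis includes a library at 0, and open symbols mark the limit that 3 counts allow. Klf4, Klf5 and Tbx3 keep 26.6% to 74.0% in RA-treated cells, and the other 7 genes keep 5.60% or less.

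The label of the RA-treated samples is neural progenitors, and the marker lists showed a mixed picture. Of 8 retinoic acid and neural genes tested, 8 were higher than in ESCs at 24 h and 7 at 72 h, and their summed level was 761 to 1181 CPM against 37.1 to 106 CPM in ESCs. Of this sum, the retinoic acid response gene Cyp26a1 alone held 234 to 981 CPM. The neural progenitor factor Pax6 was at 11.7 to 39.9 CPM. Nes was at 269, 403 and 135 CPM (WT-H3.3, H3.3K27M, H3.3K27L) at 24 h. At 72 h it was at 64.8, 61.8 and 19.6 CPM, not above the ESC range of 25.3 to 91.0 CPM. All 7 of 7 extraembryonic endoderm markers were higher at both times, with a sum of 357 to 1775 CPM against 0 to 17.2 CPM in ESCs, and fibroblast markers summed to 47.4 to 409 CPM against 1.70 to 14.6 CPM. Beside these counts, 42.5% (24 h) and 57.7% (72 h) of all genes were called in either direction, and 19.1% and 31.2% were called lower. The endoderm sum was highest in the 2 H3.3K27L libraries (1658 and 1775 CPM), the same 2 that were highest for Klf4, Klf5 and the sum of all 10 members (672 and 670 CPM, against 309 to 423 CPM in the other 4). The part of these cells in the levels of Klf4, Klf5 and Tbx3 was not tested.

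Beside the members, other genes of the network were read from fixed lists. Of 10 further genes of the naive state, all 10 fell at both RA times and in OPCs, with list medians of −6.57, −5.71 and −11.09 (log2). At 24 h the secreted phosphoprotein Spp1 was at −7.37 (SE 0.27), Dppa5a, an RNA-binding protein of pluripotent cells, at −4.69 (SE 0.29), and Tdh, the threonine dehydrogenase of mouse ESCs, at −3.67 (SE 0.28). Of 8 general pluripotency genes 6 were lower at either RA time and 7 in OPCs. The Nodal co-receptor Tdgf1 was at −9.93 (SE 0.34), Pou5f1 (Oct4) at −7.73 (SE 0.25) and Sox2 at −4.47 (SE 0.19) at 24 h. Sox2, also a factor of neural progenitors, was the gene of this list not called in OPCs (−0.86, SE 0.13, under 2-fold). LIF pathway genes did not move in one direction, since of 9 tested 4 were lower and 2 higher at 24 h, and 3 and 2 at 72 h, next to 42.5% and 57.7% of all genes called. Socs3, the feedback inhibitor induced by STAT3, fell by 2.88 (SE 0.29) at 24 h and by 3.48 (SE 0.33) at 72 h. Stat3 itself was at −0.42 (SE 0.16) and −0.10 (SE 0.17), under 2-fold, and the kinase gene Pim3 fell by 1.69 (SE 0.19) at 24 h and was 1.27 (SE 0.17) higher at 72 h.

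Whether a mutant histone left more of the naive factors in RA-treated cells was asked with both Dox times of a line pooled, as the methods do. Of the 7 members tested (Nanog, Prdm14 and Nr5a2 had too few counts), 0 were called in H3.3K27M against WT-H3.3, against a background of 0% (14 genes at an unadjusted p under 0.05), with differences of −0.79 (Tfcp2l1), −0.48 (Klf4), −0.26 (Tbx3), −0.13 (Klf5), −0.05 (Esrrb), −0.05 (Zfp42) and −0.02 (Klf2). In H3.3K27L 0 of 7 were called as well, against 0% (185 genes at an unadjusted p under 0.05). Klf4 had the largest difference, 1.46 (log2, SE 0.35, 2.76-fold, edgeR adjusted p = 1) and the 1 unadjusted p under 0.05 among the members, and both H3.3K27L libraries (207 and 197 CPM) were above the 4 others (50.2 to 85.5 CPM). Zfp42 was at 1.39, Klf5 at 1.02, Tbx3 at 0.37, Klf2 at −0.26, Tfcp2l1 at −0.45 and Esrrb at −0.70. This fit counts the change between 24 and 72 h as spread (common dispersion 0.457). With Dox time as a term the dispersion was 0.0177, and then 2 of 7 members were called higher in H3.3K27L, against 3.64% of all genes in either direction. They were Klf4 (1.44, SE 0.18, adjusted p = 0.00107) and Zfp42 (1.40, SE 0.35, adjusted p = 0.0345). Klf5 was at 0.88 (adjusted p = 0.0309), under 2-fold. H3.3K27M had 0 of 7 members called in that fit too, against 0.0163%. The median gene of chromosome 14, which holds Klf5, was at 1.46-fold and 1.43-fold in the H3.3K27L libraries at 24 and 72 h.

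The loss itself was compared between lines as the RA difference of the mutant minus that of WT-H3.3. None of the 10 members was called for H3.3K27M (background 0%) or H3.3K27L (background 0.221%). Nanog had 1.08 (SE 0.78, edgeR adjusted p = 0.707) in H3.3K27L, with an interval of −0.49 to 2.65 at 2 SE on either side, and 0.14 (SE 0.81, adjusted p = 1) in H3.3K27M, with −1.49 to 1.77, so that changes of over 2-fold were not out of reach. Klf4 had −0.77 (SE 0.31) in H3.3K27M and 0.82 (SE 0.31) in H3.3K27L, with adjusted p-values of 1 and 0.341.

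In OPCs all 10 members were called lower than in ESCs, against a background of 36.8% called lower (66.7% in either direction), with medians of −6.67 for the members and −0.19 for all genes. Zfp42 had 1 count in the WT-H3.3 OPCs, which is 0.0120% of the ESC level (exact Poisson interval 0.000305% to 0.0671%), and 0 counts in the H3.3K27M OPCs, where by a limit of 3 counts over the group it was at least 1527-fold lower than in ESCs. Prdm14 had 1 count in each WT-H3.3 library (0.233%, interval 0.0282% to 0.840%) and 0 in both H3.3K27M libraries (at least 217-fold lower). Nanog had 3 counts and 0 counts in the WT-H3.3 libraries at 24 and 72 h (0.00988%, interval 0.00204% to 0.0289%), and 0 and 9 counts in the H3.3K27M libraries, or 1.08 CPM in the last. The 3 genes were thus at or near the limit of detection in every OPC library. Klf2 was at 6.70 and 9.15 CPM in WT-H3.3 and at 12.3 and 6.02 CPM in H3.3K27M OPCs, or 2.34% and 2.96% of the ESC level.

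H3.3K27M and WT-H3.3 OPCs kept different naive factors. Of 7 members tested, 2 were called higher and 4 lower in H3.3K27M OPCs, where 12.9% of all genes were called higher and 15% lower (27.9% in either direction). Esrrb was at 1.53 and 1.33 CPM in WT-H3.3 OPCs (24 and 72 h) and at 14.9 and 12.5 CPM in H3.3K27M OPCs, 2.17% of the ESC level. Its difference was 3.25 (log2, SE 0.29, 9.53-fold, edgeR adjusted p = 6.42e-06). Nr5a2, known also from liver and pancreas, had 0.242 and 0.286 CPM (3 counts each) in WT-H3.3 and 7.07 and 7.35 CPM in H3.3K27M OPCs, 6.43% of ESCs. Here the difference was 4.73 (SE 0.44, 26.5-fold, adjusted p = 8.82e-06). For both genes the lines did not overlap.

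Klf4, Klf5 and Tbx3, the members that stayed highest in RA-treated cells, were lower in the OPCs of the H3.3K27M line, and so was Tfcp2l1. Klf4 held 97.4 and 89.9 CPM in WT-H3.3 and 5.33 and 6.74 CPM in H3.3K27M OPCs, which is 29.0% and 1.53% of the ESC level. It was lower by 3.93 (log2 difference −3.93, SE 0.18, edgeR adjusted p = 9.35e-08). Klf5 held 53.3 and 49.8 against 2.53 and 2.89 CPM (−4.23, SE 0.21, adjusted p = 1.7e-07), and Tbx3 21.2 and 19.6 against 0.80 and 0.48 CPM (−4.97, SE 0.33, adjusted p = 7.26e-07). Tfcp2l1, a factor also of kidney and other epithelia, held 4.84 and 3.43 CPM against 0.133 and 0.482 CPM, from 1 and 4 counts (−3.65, SE 0.56, adjusted p = 0.000301). Klf2 was the tested member that was not called (0.21, SE 0.33, adjusted p = 0.613, with an interval of −0.44 to 0.86 at 2 SE).

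**Figure D5:**
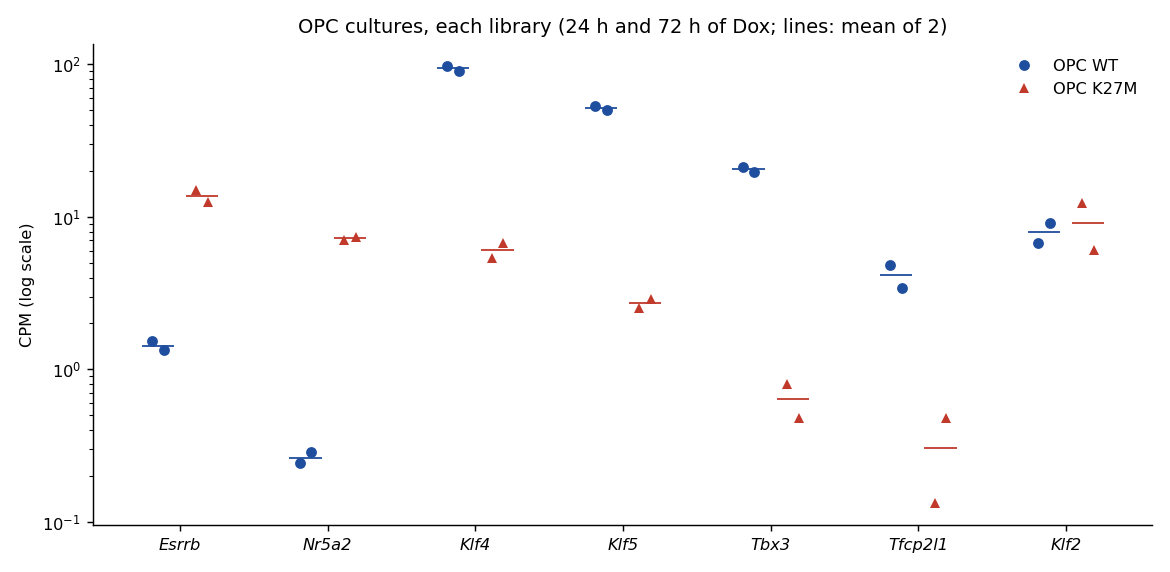
CPM (log axis) of 7 members in the 2 WT-H3.3 and 2 H3.3K27M OPC libraries. Esrrb and Nr5a2 are higher in H3.3K27M, Klf4, Klf5, Tbx3 and Tfcp2l1 lower, and Klf2 overlaps.

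In ESCs the differences between these lines lay between −0.23 and 0.35. The H3.3K27M minus WT-H3.3 difference in OPCs minus that in ESCs was 3.20 for Esrrb (SE 0.38, edgeR adjusted p = 1.3e-06), 4.88 for Nr5a2 (SE 0.39, adjusted p = 4.16e-09), −4.24 for Klf4 (SE 0.34, adjusted p = 5.07e-09), −4.39 for Klf5 (SE 0.37, adjusted p = 7.17e-09) and −4.73 for Tbx3 (SE 0.49, adjusted p = 1.7e-07). Tfcp2l1 had −3.65 (SE 0.82, adjusted p = 0.00214), and −2.80 (adjusted p = 0.101) without the 24 h library of either OPC line. These are 2 members higher and 4 lower of 10, where 6.91% and 9.55% of all genes were called (16.5% in either direction). For Nanog the value was 1.97 (SE 1.19, adjusted p = 0.274), from 12 counts in all OPC libraries. It was called without the 24 h library of WT-H3.3 (6.34, adjusted p = 0.0401) or of H3.3K27M (6.38, adjusted p = 0.04), fits in which 1 line is left with a single OPC library.

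The OPC lines also differed in markers of other cells. Fibroblast markers summed to 520 and 574 CPM in WT-H3.3 and to 21.7 and 26 CPM in H3.3K27M OPCs, with 6 of 7 called lower and 1 higher, and none of the 7 at 0 in every library. Extraembryonic endoderm markers summed to 87.6 and 105 against 19.5 and 22.5 CPM, with 5 of 5 tested called lower. Oligodendrocyte precursor markers summed to 498 and 528 against 1646 and 1771 CPM, and Olig2 alone was at 256 and 306 against 924 and 927 CPM. Of these 8 markers 5 were called higher and 2 lower. Beside these counts, 12.9% of all genes were called higher and 15% lower (27.9% in either direction). Among the defining markers the picture was not uniform, since Pdgfra was at 14.4 to 21.6 CPM in WT-H3.3 and 0.53 to 0.72 CPM in H3.3K27M OPCs, and Sox10 was at 3.14 CPM or less in every OPC library. The part of these cell mixtures in the levels of Klf4, Klf5, Tbx3, Tfcp2l1, Esrrb and Nr5a2 was not tested. The labels number the OPC libraries of 72 h as 1 and those of 24 h as 2, and whether these came from separate differentiations was not given in the sources used here. Each line had 1 OPC library for each Dox time.

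Genes with the profile most like that of the list were looked for by the root mean square distance between a gene's centred log2(CPM + 0.5) profile and the median centred profile of the members, over 26 points (16 means of an ESC group and time, 6 RA and 4 OPC libraries). Among 8776 genes that averaged 10 CPM or more, the nearest were 1700061G19Rik (0.34), Cobl (0.42), Pla2g1b (0.43), Nr0b1 (0.45) and Dnajc6 (0.46). All of them were nearer than any member, of which Prdm14 (0.69) and Tfcp2l1 (0.79) were the closest and Klf5 (2.17), Tbx3 (2.02) and Klf4 (1.87) the farthest. The points share libraries, so the distances are a description.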

How the data were processed

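The authors aligned single-end reads to mm9 with STAR 2.7.1 and deposited raw counts per gene, without normalization. The counting tool, annotation and strand setting were not given in the sources used here, and the deposited ChIP-seq files were not used. Column names gave each library's line, Dox time and replicate. The OPC columns at 72 h carry another replicate number in the table than in the labels, and line and time decided their sample.

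Genes were matched to the NCBIM37 annotation (32589 of 55471, holding 98.2% of counts). For the tests, edgeR 4.0.16 in R 4.3.3 was run on the counts (filterByExpr, TMM scaling, quasi-likelihood F), and p-values were adjusted by Benjamini-Hochberg over all genes tested. Calls required an adjusted p under 0.05 together with more than 2-fold difference in either direction. The SE of a log2 difference is its size over the root of F. The ESC model held 32 libraries and 1 coefficient per combination of group and time (14012 genes), the comparison of stages 22 libraries without GSK343 and the shortest ESC times (15828 genes), the RA model 6 (12233 genes) and the OPC model 4 (12467 genes). Chromosome 8 was left out as in the methods, and Klf2 and Zfp42 were tested in the same fits with it kept. Smallest differences between libraries exceeded sampling noise (chi-square per gene at least 1.87). Replicates are repeats of the same lines, so p-values measure the spread between repeats. For RA-treated cells and OPCs they measure the spread between the 2 Dox times, which may or may not come from separate cultures. ESC comparisons over all Dox times count the times of a repeat as separate. Replicate numbers differed in the same direction at 4 of 4 times for several members, so these p-values may be too small. In fits with H3.3K27L libraries of 1 number, each of these stands alone at its Dox time, and the spread is that of the other groups. The tests were tried on simulated counts.

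Whether replicate numbers pair libraries was checked across 8289 genes. The differences between replicates correlated at 0.624, 0.715, 0.606 and 0.716 between WT-H3.3 and H3.3K27M (4, 8, 24 and 72 h), so the numbers pair these, and at −0.601, −0.708, −0.686 and 0.261 between WT-H3.3 and H3.3K27L.

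Alternatives changed the tool (DESeq2 1.42.0), the scaling, the filter, the libraries, the replicate block, chromosome 8 and the fold threshold, and left out each library in turn. No scaling beyond the library total, the crossed block, H3.3K27L libraries of 1 number (at all times and at 4 to 24 h) and the fit without the smallest library were added after seeing the data. The members, the gene lists and the tests were chosen with earlier results of these data known. The rule for names was all 10 members, and from a list at most the 3 genes of the highest mean CPM, beside markers that define a stage. At 72 h alone and for differences of differences members are given by counts, ranges and examples. Promoters are from RefSeq (GRCm38.p6). Tables were handled in Python 3.11.15 (pandas 2.3.3, SciPy 1.17.1) and plotted with Matplotlib 3.10.9.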

Additional observations from a re-analysis of the deposited data

Results flagged for a closer look

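The test for an outlying library was applied to 40 sets of libraries, each a gene in 1 group of ESCs, and by chance it marks about 1 in 20 sets. Replicate 2 of H3.3K27L ESCs at 72 h, the library of 68378 counts, was far below the other 7 H3.3K27L libraries for Esrrb (395 CPM), Klf2 (132 CPM), Klf4 (307 CPM) and Prdm14 (0 CPM). In that library 3 counts equal 43.9 CPM, so its Prdm14 level could not be told from that of the others. In the H3.3K27M ESCs, replicate 2 at 4 h was far above the other 7 for Tbx3 (326 CPM).

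For 6 members the line difference (H3.3K27M minus WT-H3.3) was not the same in OPCs as in ESCs, tested as OPC difference minus ESC difference (log2) in edgeR. It was larger in OPCs for Esrrb (3.20) and Nr5a2 (4.88), and lower in OPCs for Klf4 (−4.24), Klf5 (−4.39), Tbx3 (−4.73) and Tfcp2l1 (−3.65). Fibroblast and extraembryonic endoderm markers moved with the second group, and their part was not tested. The Tfcp2l1 value was −2.80 and no longer called without the 24 h library of either OPC line.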

How the results depend on the processing

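The counts compared here are of members outside chromosome 8, 8 at most. Of 278 such counts under the alternatives, 269 stayed within 1.5 times the reported count and 9 were higher, none lower or reversed. In RA-treated cells at 72 h against 24 h, 0 of 8 members were called, against 1 with DESeq2, 1 with DESeq2 size factors, 1 without a filter on low counts, 2 with chromosome 8 kept (Klf2 and Zfp42), and 0 to 1 when leaving out a library. For H3.3K27L against WT-H3.3 in RA-treated cells, the fit with Dox time as a term called 1 (Klf4) where pooled times called 0. With the replicate block, 0 members were called in every ESC comparison, and calls among all genes went from 2 to 23 for H3.3K27M and from 481 to 546 for H3.3K27L. The block is taken as a pairing for H3.3K27M alone, and with numbers crossed 0 members and 9 and 632 genes were called. In OPCs the replicate block (Dox time) left 6 members called. Leaving out a library gave 5 to 7 members for RA at 24 h, 6 to 7 at 72 h, 8 of 8 for OPCs against ESCs, 6 for the OPC lines and 6 for the difference of differences, and 0 in each ESC comparison. The 6 of the difference of differences were not always the same members. Without the 24 h library of either OPC line, Tfcp2l1 lost its call and Nanog gained one. At a 4-fold threshold the calls of Klf5 (RA, 24 h) and Tbx3 (RA, 72 h) were lost. Among values of single members 2025 kept their side of the thresholds, 99 without a call in either fit changed sign, 10 gained and 9 lost a call, and no called value reversed.

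Depth limits Prdm14, Nanog, Nr5a2 and Zfp42 after differentiation, where single counts decide a value. RA-treated cells and OPCs had 1 library for each line and Dox time, and whether the 2 times came from separate cultures was not given in the sources used here.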

Other observations

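Genes of the formative and primed epiblast, the states that follow the naive one, did not move together in RA-treated cells. Of 10 tested, 3 were higher and 5 lower than in ESCs at 24 h, and 3 and 4 at 72 h, where 42.5% and 57.7% of all genes were called. Dnmt3b, a de novo DNA methyltransferase, fell by 1.70 (log2, SE 0.18, edgeR adjusted p = 1.08e-08) at 24 h, and Zic2, a zinc finger factor of the neural plate, fell by 2.47 (SE 0.27, adjusted p = 1.66e-08). Dnmt3a was at 0.84 (SE 0.13), under 2-fold. In H3.3K27M against WT-H3.3 OPCs 3 of 6 tested were higher and 1 lower, where 12.9% and 15% of all genes were called. Dnmt3b was among the higher genes (1.18, SE 0.28, edgeR adjusted p = 0.00422).

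Of 6 germ cell genes, which ESCs in 2i express at low levels, 4 were lower and 2 higher in RA-treated cells at 24 h, and 4 lower at 72 h, where 19.1% and 31.2% of all genes were called lower and 42.5% and 57.7% in either direction. Dazl, an RNA-binding protein of germ cells, was at −4.18 (SE 0.36) and −2.04 (SE 0.34). Stk31 was at −1.92 (SE 0.24) and −2.34 (SE 0.28). Ddx4, an RNA helicase of germ cells, was 1.85 higher (SE 0.16, edgeR adjusted p = 4.75e-10) at 24 h and at 0.52 (SE 0.19), under 2-fold, at 72 h. In H3.3K27L ESCs 2 of the 6 were called lower than in WT-H3.3 (3.43% of all genes called), Dazl (−1.03, SE 0.22, adjusted p = 0.00522) and Stk31 (−1.14, SE 0.18, adjusted p = 0.000227). With the H3.3K27L libraries of 4 to 24 h of 1 number only, Dazl was at −1.16 (adjusted p = 0.0308) in number 1 and −1.17 (adjusted p = 0.0378) in number 2, and Stk31 at −0.99 (adjusted p = 0.0155, under 2-fold) and −1.10 (adjusted p = 0.0101). The p-values of these fits of 1 number rest on the spread of the other groups. Trophoblast markers went both ways in RA-treated cells at 24 h, with 2 of 6 higher and 2 lower. Tfap2c, a factor also of germ cells, was at −3.25 (SE 0.31). Gata3, a factor also of neural and endodermal tissue, was 5.39 higher (SE 0.26), and Eomes was at −2.62 (SE 0.30).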
